A study of Mus musculus with 12 samples.

Results

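The cytosolic ribosomal protein genes encode the proteins of the small (40S) and large (60S) subunits of the ribosome, and were followed here in livers of fed and fasted mice. A probe was a member when the gene name in the scanner files began with Rpl or Rps (Rplp1 and Rplp2 included), names beginning with Rps6k left out. On 9 of the 12 arrays the files named 65 such probes for 45 genes, out of 20280 probes. The annotation in the other 3 files is of another version that names 47 such probes, of which 41 are among the 65; the 65 were used throughout. Of these, 29 probes (19 genes) stood for small-subunit proteins and 36 probes (26 genes) for large-subunit proteins.

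Male FVB mice, 6 weeks old and kept on chow, were either fed (0 h) or deprived of chow for 12, 24 or 72 hours, and infrared lamps kept the fasted animals warm from 24 hours on. Each group had 3 arrays, and each array held RNA pooled from 2 livers, labelled with Cy3, against a common reference labelled with Cy5. The reference was RNA of 6 fed livers, the same 6 that made up the fed arrays. Values are log2 of sample over reference, and a difference of such values between groups is a log2 change. Because arrays held pools, their spread is not the spread between mice, and in whole liver RNA a lower share of one cell type cannot be told apart from less RNA per cell.

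Ribosomal protein mRNAs are among the most abundant of any cell, and the proteins they encode are made in matched amounts. Most of them begin with a C followed by a run of pyrimidines, the 5-prime terminal oligopyrimidine (TOP) tract, through which the nutrient-sensing kinase TOR controls how well they are translated. Feeding and fasting are known to shift these mRNAs into and out of polysomes in liver, which an array of total RNA does not record.

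Some of the start sites show that tract directly. RefSeq (GRCm38.p6) promoter windows, 250 bases before to 50 after the annotated start, were matched for 32 of the 45 genes, 2 of them through a synonym (Rpl44 to Rpl36a and Rps3a to Rps3a1). A C followed by at least 4 pyrimidines stood at the annotated start of 6 of the 32 genes (18.8%), against 3.01% of 27025 genes with a window in the table. The 6 are printed because they carry the tract, and Rps28 because it had the next highest change after Rps27 at 72 hours without one at its annotated start. Each line runs 5′ to 3′ over 80 bases before and 20 bases from the start, and capitals mark the pyrimidine tract at the start and any match to CCGGAAG or AAGATGGC on either strand. In Rpl35a the tract CTCTTTCC and a match to AAGATGGC on the opposite strand lie next to each other, so that their capitals run on.
Rps27 (chr3:90213629-90213728, minus strand): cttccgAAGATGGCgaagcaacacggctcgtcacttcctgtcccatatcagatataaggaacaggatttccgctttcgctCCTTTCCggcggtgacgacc
Rps6 (chr4:86857348-86857447, minus strand): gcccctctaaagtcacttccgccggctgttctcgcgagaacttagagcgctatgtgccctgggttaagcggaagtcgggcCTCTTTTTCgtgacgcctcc
Rpl28 (chr7:4792885-4792984, plus strand): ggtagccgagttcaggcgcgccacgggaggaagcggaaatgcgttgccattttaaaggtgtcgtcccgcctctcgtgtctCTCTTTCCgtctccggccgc
Rpl35 (chr2:39005112-39005211, minus strand): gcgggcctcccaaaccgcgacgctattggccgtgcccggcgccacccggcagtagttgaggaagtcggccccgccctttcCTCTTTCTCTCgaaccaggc
Rpl35a (chr16:33056402-33056501, plus strand): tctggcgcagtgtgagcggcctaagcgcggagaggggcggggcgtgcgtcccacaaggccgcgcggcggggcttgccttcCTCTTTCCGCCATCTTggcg
Rplp2 (chr7:141447571-141447670, plus strand): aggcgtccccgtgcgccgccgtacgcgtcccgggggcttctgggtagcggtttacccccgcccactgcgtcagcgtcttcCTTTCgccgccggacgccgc
Rps28 (chr17:33824543-33824642, minus strand): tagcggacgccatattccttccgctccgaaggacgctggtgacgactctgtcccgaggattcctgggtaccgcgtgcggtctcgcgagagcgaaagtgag

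The letters CCGGAAG, the core of sites for ETS factors, occurred on either strand in the whole window of 10 of the 32 genes (31.2%) and of 9.93% of all genes in the table. AAGATGGC, the core of sites for YY1, occurred in 4 of 32 (12.5%), namely Rpl13a, Rpl22, Rpl35a and Rps27, and in 3.19% of all. The letters CTTTCC, common in TOP tracts, were sought within 50 bases of the start on the strand that reads like the mRNA. They occurred in 11 of 32 genes (34.4%) and in 5.43% of all, a search added after the windows had been seen. CTTTCC can lie inside the tract itself, and the ends of the motifs can share letters. These matches describe the windows, not the binding of a factor. The other 13 genes, Rpl29, Rpl30, Rpl36, Rpl7, Rpl8, Rplp1, Rps20, Rps27a and Rps29 among them, had no row.

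All 65 members were above background, with 777 of 780 sample spots marked well above it by the scanner software and no spot saturated. They fell into 49 bright probes, with a mean log2 sample signal of 10.7 to 13.5, and 16 dim probes, at 6.66 to 9.35. The median signal of a bright member was 120.2 times its local background and that of a dim member 6.38 times, against 7.53 times over all probes. Every probe of 5 genes was dim, among them all 4 probes of Rpl27a. The line between bright and dim, at 10, lies in the gap between both ranges and was drawn after the values had been seen. In the liver, Alb1, Apoa1, Ttr and Trf, which mark hepatocytes, had log2 sample signals of 15.7 to 15.8 in the fed arrays, close to the highest on the array.

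Within each fasted group the array medians of the members spread more widely than the group means of these medians, which ran from 0.04 to 0.55. The fed arrays spread less widely than that. The median log2 ratio of the members was 0.28, 0.29 and −0.08 on the 3 fed arrays, 0.73, −0.92 and 0.29 after 12 hours, 0.42, 0.35 and −0.52 after 24 hours, and 0.17, 0.70 and 0.79 after 72 hours. Replicate 2 of the 12-hour group and replicate 3 of the 24-hour group stood below all other arrays. On both, the sample channel was weak: the bright members reached 10.0 and 19.4 times background there, and 67.3 to 180.7 times elsewhere. Their reference channel was not weak, with 71.5 and 55.8 times background against 30.8 to 75.02 times elsewhere. The other bright probes of the array, 2433 with a mean log2 signal of at least 10 that are no members, had median log2 ratios between −0.18 and 0.13 on all 12 arrays. In the raw sample channel they were weak on the 2 weak arrays too, at 8.15 and 9.97 times background against 28.7 to 80.5 times elsewhere. Normalization put all 24 channels on a common distribution, which holds the median ratio of so large a set near 0. The narrow range of these medians therefore cannot tell whether the swing of the bright members, from −1.03 to 0.99, was particular to them.

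**Figure D1:**
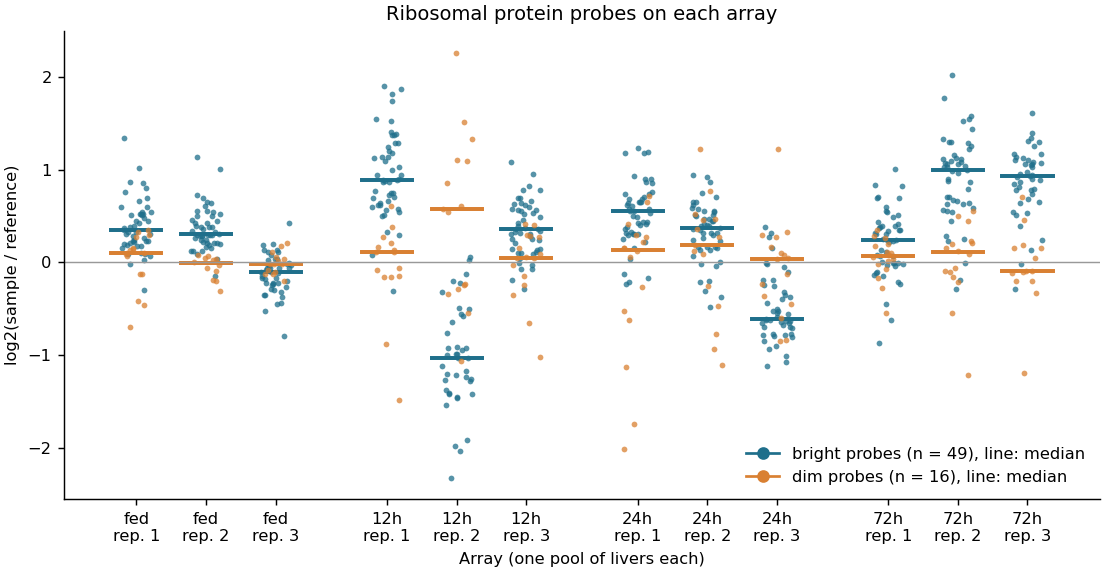
Log2 ratio of sample over reference for each of the 65 ribosomal protein probes on each of the 12 arrays. Points are probes, blue for the 49 bright and orange for the 16 dim ones, and lines are their medians. On the weak arrays (12h rep. 2 and 24h rep. 3) only 2 of 40 and 4 of 47 blue points lie above 0, and the orange medians stay between −0.10 and 0.18 apart from 0.58 on 12h rep. 2.

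After 12 and 24 hours of fasting, the median changes from fed liver lay close to 0, as averages of arrays that read in opposite directions. They do not fix the level of these mRNAs, since they changed with the arrays and blocks used, as given below. The median log2 change of the members was −0.03 at 12 hours, with 32 of 65 probes higher, and −0.05 at 24 hours, with 22 of 65 higher; over all probes tested it was −0.01 and −0.00. No member passed the test (limma with Benjamini-Hochberg adjustment across the array, taking adjusted p-values under 0.05 with 1.4-fold or more either way) at either time. Of all probes, 0.00497% passed it at 12 hours and 0.00497% at 24 hours, 1 probe at each time. At an unadjusted p under 0.05 no member passed at 12 hours, where 3.92% of all probes did, and 1 of 65 at 24 hours, where 3.04% did. That 1 was Rpl12, a protein near the base of the ribosomal stalk. Rpl12 read 0.33, 0.03 and 0.03 on the fed arrays and −0.16, −0.31 and −0.35 after 24 hours, a log2 change of −0.41 ± 0.18 (SE) with an unadjusted p of 0.0447. All 3 of its 24-hour arrays lay below its fed arrays.

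Both early medians changed sign without the 2 weak arrays. The median change of the members was then 0.30 at 12 hours (53 of 65 higher) and 0.20 at 24 hours (48 of 65 higher). Weighting the arrays by their quality gave 0.29 and 0.19. Among the fed arrays these weights were 0.55, 7.15 and 1.57 for replicates 1, 2 and 3, so that the weighted fed values rest mostly on replicate 2. On that array 24.7% of the spots were marked as outliers. Without the weak arrays, 2 members passed at each time, beside 2.6% of all probes at 12 hours and 8.81% at 24 hours. At 12 hours these were Rpl5, which carries the 5S RNA into the large subunit, at 1.96-fold higher, and the dim probe of Rpl30, a large-subunit protein, at 0.521-fold. At 24 hours they were Rpl22, a large-subunit RNA-binding protein also on a dim probe, at 1.83-fold higher, and again Rpl30, at 0.569-fold. With quality weights, 14 members passed at 12 hours (12 higher and 2 lower, 9.53% of all probes passing), 6 at 24 hours (4 higher and 2 lower, 10.5% of all probes) and 7 at 72 hours (6 higher and 1 lower, 4.11% of all probes). These shares of members, 14 of 65 at 12 hours and 7 of 65 at 72 hours, stand above those of all probes, and that of 24 hours, 6 of 65, does not.

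The fed arrays and the early fasted arrays were also quantified on different days, as the file headers give them. Both weak arrays and fed replicate 1 were quantified on a common day, and the other 12- and 24-hour arrays had no fed array on theirs. Within the day of the weak arrays the median difference of the members from fed was −1.21 at 12 hours and −0.85 at 24 hours, each of 1 array against 1. With the day as a block, the medians became −0.80 and −0.91, and 18 members passed at 12 hours (17 of them lower) and 9 at 24 hours (8 of them lower), where 23.2% and 12% of all probes did. The bright probe of Rpl5 and the probe of Rpl30 passed there in the opposite direction to that without the weak arrays. Rpl5 was at −1.45 at 12 hours (limma adjusted p = 0.0299) and −1.40 at 24 hours (adjusted p = 0.0488), and Rpl30 at 2.29 (adjusted p = 0.00919) and 2.02 (adjusted p = 0.0203). Those values rest on the weak arrays, so that day and weak signal cannot be told apart for the comparison of early fasting with fed liver. Between 24 and 12 hours, on the day that held 2 arrays of each, 17 of 65 members were higher and the median difference was −0.19; over all arrays it was −0.06, with 25 of 65 higher. Quality weights gave 2 lower members in that comparison, Rpl44 and Rpl27a, both on dim probes, and 0.9% of all probes.

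After 72 hours, the median log2 change of the members was 0.34, and 55 of 65 probes were higher than in fed liver. Over all probes the median was −0.01, and over the 2431 other bright probes tested −0.01. At least 1.4-fold higher were 21 of 65 members (32.3%), against 3.68% of all probes. All 21 were among the 49 bright members (42.9% of these), where 6.38% of the other bright probes were that much higher. At least 1.4-fold lower was 1 of 65, Rpl30. No member passed the test, nor did more than 0.00996% of all probes, and the smallest adjusted p among the members was 1.00. At an unadjusted p under 0.05 stood 1 of 65 members, Rpl23, and 1.55% of all probes. The array medians overlapped: the 72-hour arrays were at 0.17, 0.70 and 0.79, and the lowest of them lay below 2 of the 3 fed arrays. Of the 51 members with a value on all 6 arrays, 9 had every 72-hour array above every fed array, against 1119 of 12161 such probes (9.2%). The reverse, every 72-hour array below every fed array, held for 2 of the 51 and for 1175 of the 12161.

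Of 29 small-subunit probes, 27 were higher, with a median of 0.47, and of 36 large-subunit probes, 28, with a median of 0.24. Bright members had a median of 0.46 (45 of 49 higher) and dim members 0.06 (10 of 16 higher). Of the small-subunit probes 26 of 29 were bright and of the large-subunit probes 23 of 36, and the difference between these groups was not tested. The quantification day of the 72-hour arrays also held replicates 2 and 3 of the fed group, and within it the median difference was 0.45, with 54 of 64 members higher, where 41.8% of all probes were.

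The positive median of the ratio was not matched in the sample signal alone. The quantile-normalized sample channel of the members gave a median change of −0.07 at 72 hours, and the reference channel, which held the same RNA on every array, gave −0.46. On the bright members, the median log2 reference signal was 12.6, 11.3 and 11.9 on the fed arrays and 11.6, 11.4 and 11.2 on the 72-hour arrays. The sample signal was 13.0, 11.6 and 11.9 on the fed arrays and 11.8, 12.3 and 12.2 on the 72-hour arrays. Both channels were brightest on fed replicate 1, which was quantified on another day than the 72-hour arrays. The part of this shift of the reference in the 72-hour result was not tested.

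**Figure D2:**
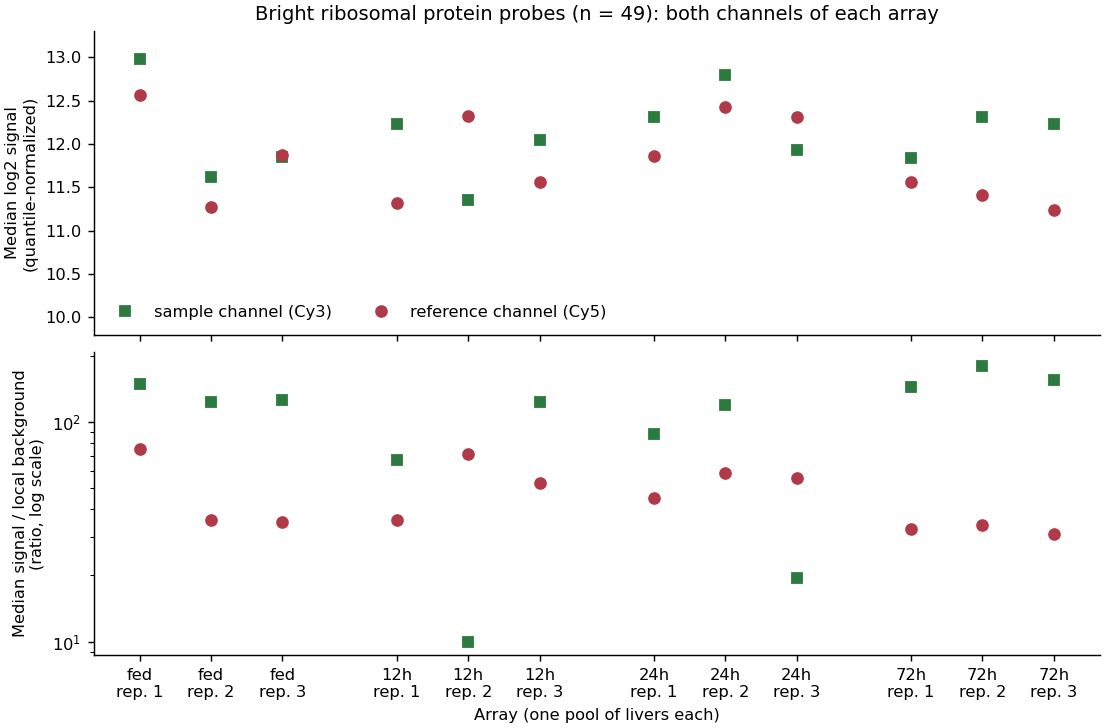
Median quantile-normalized log2 signal (top) and median ratio of raw signal to local background (bottom, log scale) of the 49 bright ribosomal protein probes on each array; green squares are the sample channel, red circles the common reference. The sample falls to 10.0 and 19.4 times background on the 2 weak arrays, and the 72-hour arrays have the sample above a reference that reads 11.2 to 11.6.

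Among the single members, Rps27 had the highest change at 72 hours. Rps27, a zinc-finger protein of the small subunit, read 0.52, 0.60 and −0.02 on the fed arrays, 1.37, −0.998 and 0.82 after 12 hours, 1.19, 0.54 and −0.24 after 24 hours, and 1.00, 1.77 and 1.34 after 72 hours. All 72-hour arrays lay above all fed arrays, and the 12- and 24-hour arrays spanned both. Its mean was 0.37 ± 0.34 (SD, n = 3) in fed and 1.37 ± 0.39 (SD, n = 3) after 72 hours, a 2.01-fold difference that did not pass (log2 1.00 ± 0.55 SE, unadjusted p = 0.0936, limma adjusted p = 1.00). The sample channel alone gave a log2 change of 0.45 for this probe and the reference channel −0.55.

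Rps28, a small protein near the messenger exit of the small subunit, read 0.52, 0.35 and −0.22 in fed and 0.70, 1.29 and 1.29 after 72 hours, which was 1.84-fold higher with no overlap (0.88 ± 0.49 SE). It was also the member with the highest value at 24 hours, 0.37, where its arrays of 1.17, 0.58 and −0.01 overlapped those of fed. With quality weights, which lean on fed replicate 2, it was 2.04-fold higher at 12, 1.73-fold at 24 and 1.89-fold at 72 hours, and passed at each.

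Rpl23, a large-subunit protein that also binds the p53 regulator Mdm2, read 0.40, 0.38 and −0.23 in fed and 0.39, 1.30 and 1.16 after 72 hours. Its difference of 0.77 ± 0.33 (SE), or 1.70-fold, had an unadjusted p of 0.0439, and its lowest 72-hour array lay within the fed arrays. At 12 hours, where its spot on the weak array had been marked as an outlier, the change was 0.64 over the other 2 arrays.

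Rps6 is the small-subunit protein that S6 kinases phosphorylate when nutrients are ample. It had 5 probes, 4 of them bright. The probe with the largest change read 0.22, 0.29 and −0.17 in fed and 0.41, 1.13 and 1.16 after 72 hours, and was 1.73-fold higher (0.79 ± 0.52 SE). Its other bright probes were 0.46 to 0.58 higher on the log2 scale and its dim probe 0.12; on these 3 bright probes the third 72-hour array was missing as an outlier. For 3 of the 4 bright probes every 72-hour array with a value lay above every fed array, and none of the 5 probes passed the test.

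Rpl5, whose bright probe passed at 12 hours once the weak arrays were left out, read 0.31, 0.42 and −0.17 in fed, 1.38, −1.42 and 0.95 after 12 hours, 0.93, 0.94 and −0.80 after 24 hours, and 0.54, 1.22 and 1.08 after 72 hours. Apart from the weak arrays, each fasted array of this probe lay above each fed array, and with the day as a block it passed as lower, not higher, at 12 and 24 hours. At 72 hours the change was 0.76 ± 0.67 (SE), the standard error being that of all 4 groups with the weak arrays in it.

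**Figure D3:**
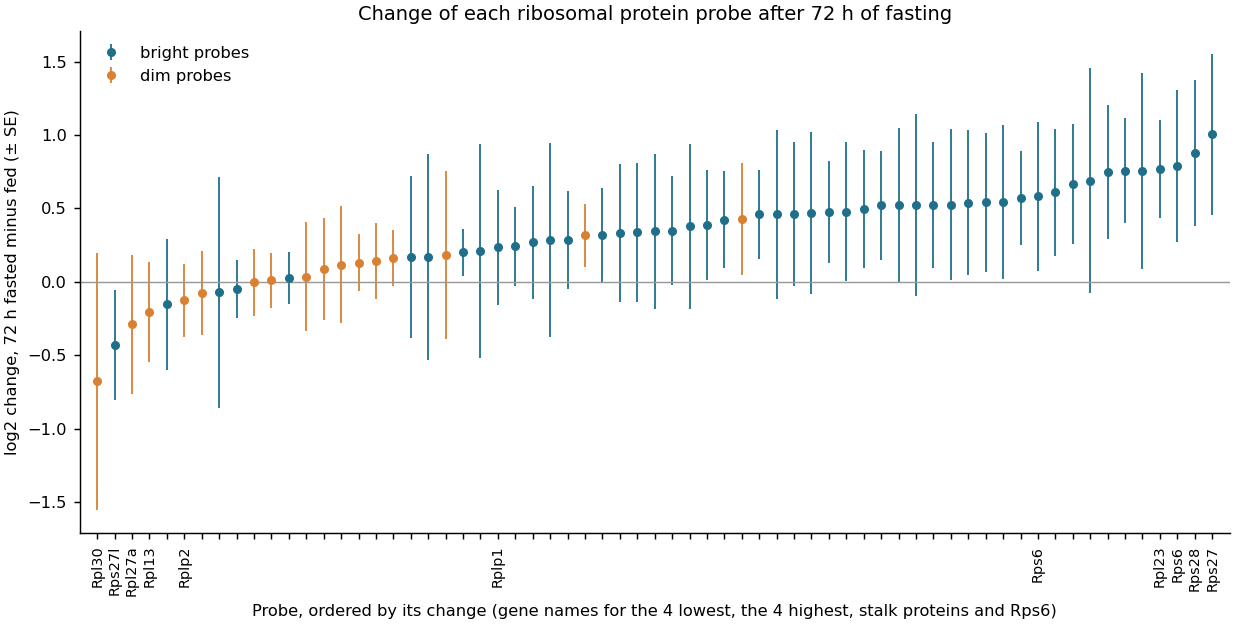
Log2 change after 72 hours of fasting for each of the 65 probes, ordered by size, with its limma standard error as the bar; blue is a bright and orange a dim probe. The values run from −0.68 (Rpl30) to 1.00 (Rps27), and the bars of most probes reach 0 or close to it.

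At the low end stood Rpl30, whose single dim probe ran against the median of the members. It read −0.42, −0.31 and −0.20 in fed, −1.48, 2.26 and −1.02 after 12 hours, −1.13, −1.11 and 1.22 after 24 hours, and −0.55, −1.22 and −1.19 after 72 hours. It was high on both weak arrays, where most bright members were low, and below every fed array on the other 7 fasted arrays. Its change at 72 hours was −0.68 ± 0.88 (SE), 0.625-fold. Its correlation with the median of the members over the 12 arrays was −0.96, and −0.83 without the weak arrays, where the member median includes it as 1 of 65. A negative r was not particular to Rpl30. The bright probe of Rpl27 (−0.88) and dim probes of Rpl13 (−0.64), Rpl27a (−0.63) and Rplp2 (−0.57) had one too, while the dim probe of Rpl37a was at 0.89.

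Rps27l, a close copy of Rps27 that p53 induces, went the other way from Rps27. It read 0.02, 0.21 and −0.12 in fed and −0.87, −0.29 and −0.02 after 72 hours, a change of −0.43 ± 0.37 (SE) with overlapping arrays, and it was the lowest of the bright members. A dim probe of Rpl27a, a large-subunit protein, was at −0.29 at 72 hours and at −0.72 at 24 hours. The value at 24 hours came from 1 array, on which it read −2.01 while the other 2 read 0.09 and 0.16. A dim probe of Rpl13, also of the large subunit, was at −0.20 with 2 fed arrays, while its bright probe was at 0.67.

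At 12 hours the 4 lowest were Rpl13a (−0.88), Rps3a (−0.71), Rps24 (−0.64) and Rps3 (−0.57), and on replicate 2 they read −1.45, −2.32, −2.03 and −0.95. Rpl13a is known as part of a complex that silences inflammatory mRNAs, and Rps3 lines the entry of the mRNA channel. The highest were the bright probe of Rplp1 (0.89), Rpl23 (0.64), Rpl22 (0.64) and Rps23 (0.63), which sits at the decoding centre. For Rplp1, Rpl23 and Rps23 the spot on replicate 2 had been marked as an outlier, so that only the other 2 arrays counted. At 24 hours the lowest were Rpl13a (−1.02), Rpl27a (−0.72), Rpl10 (−0.71), which joins the large subunit late in its assembly, and Rps24 (−0.67). The 3 highest were Rps28 (0.37), Rpl22 (0.36) and Rpl28 (0.34). The fed values of Rpl13a and Rpl10 rest on 2 arrays, as does that of Rpl13a after 72 hours.

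The acidic stalk proteins, which recruit elongation factors to the large subunit, differed between their probes. The bright probe of Rplp1 read 0.87, 0.65 and −0.18 in fed, 1.90 and 0.78 on the 2 arrays of 12 hours with a value, 0.85, 0.32 and −0.10 after 24 hours, and 0.22, 1.02 and 0.81 after 72 hours. It was lower at 24 than at 12 hours by an unadjusted p of 0.0482, a log2 change of −0.99 ± 0.44 (SE). Rplp2, on a dim probe, read −0.46, −0.20 and −0.12 in fed and −0.28, −0.55 and −0.33 after 72 hours, with overlap. No probe is reported under the name Rplp0, the scaffold of the stalk; a bright probe of an expressed sequence tag, described on the array as weakly similar to acidic protein P0, was at 0.13, −0.21 and 0.60 at 12, 24 and 72 hours and was not counted as a member.

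Between 24 and 72 hours the members were higher by a median of 0.47, with 55 of 65 higher. The median was 0.19 when the weak array was left out. No member and 0% of all probes passed the test; at an unadjusted p under 0.05 stood 3 of 65 members, all higher, and 3.42% of all probes. Among them were Rps3 (0.86 ± 0.38 SE) and Rpl12 (0.43 ± 0.18 SE). The 3 highest were Rps3a (1.049), Rpl13a (0.95) and Rpl9 (0.91), and among the 4 lowest were Rpl30 (−0.64), Rps27l (−0.23) and the bright probe of Rpl27 (−0.14). Between 12 and 24 hours no member and 0% of all probes passed, and 1 of 65 members, Rplp1, and 0.945% of all probes had an unadjusted p under 0.05. For 72 against 24 hours, quality weights gave 4 members (3 higher and 1 lower) and 4.26% of all probes, and the day as a block, which again rests on the weak array, 16 members and 10.6% of all probes.

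The bright members moved together from array to array. Over the 32 bright probes with 12 values, all 496 pairs had a positive Pearson r, with a median of 0.90, and over the 10 arrays without the weak ones 772 of 820 pairs of 41 probes were positive, with a median of 0.82. Over the 9 dim probes with 12 values, 21 of 36 pairs were positive, with a median of 0.19. Arrays share one normalization and these pairs share their arrays, so that the values describe the 12 arrays and no more. With the array median of the members, 48 of the 49 bright probes had an r of 0.71 or higher; the exception was a bright probe of Rpl27, at −0.88 over 11 arrays. Without the weak arrays, r fell to 0.28 for Rps27l and 0.33 for Rpl12. The values of Rpl27 stayed between −0.31 and 0.38, high where the others were low.

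**Figure D4:**
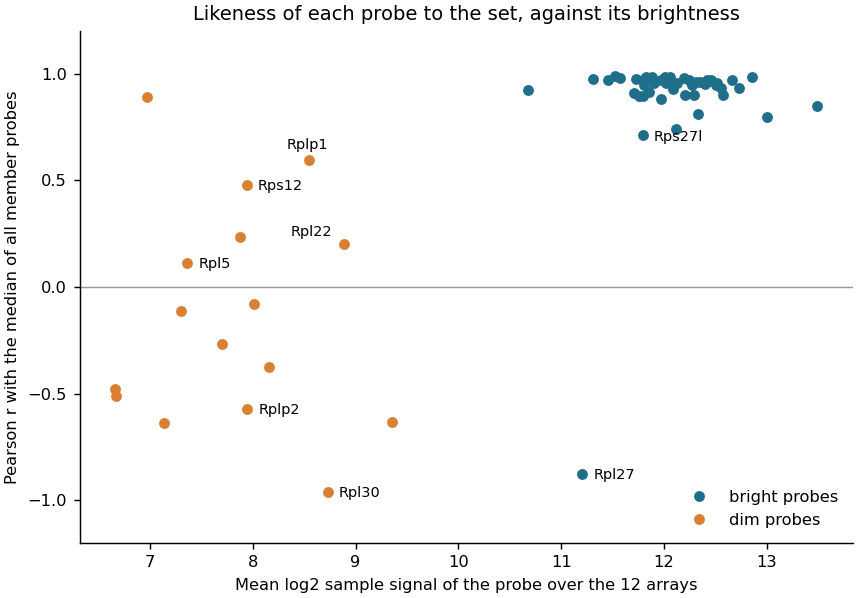
Pearson correlation of each member probe with the median of all 65 members over the arrays with a value, against the mean log2 sample signal of the probe. Blue bright probes lie between 0.71 and 0.99 apart from Rpl27 at −0.88, and orange dim probes spread from −0.96 (Rpl30) to 0.89.

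Probes of the same gene read alike where both were bright. Both probes of Rpl7 (r = 0.96), Rps26 (0.99) and Rpl6 (0.93) followed each other. A bright and a dim probe of the same gene did so less: r was −0.55 for Rpl13, −0.70 for Rpl27, −0.05 for Rplp1 and 0.19 for Rpl5, and 0.87 for Rpl37a. The 4 dim probes of Rpl27a had r from −0.83 to 0.81, the 4 of Rps12 from 0.45 to 0.99, and the 5 of Rps6 from 0.18 to 1.00. The 13 genes with several probes thus give 2 different readings by brightness, and a probe's name alone does not settle which is that of the gene. The genes of this family have many near-identical pseudogene copies, to which probe sequences were not compared here.

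The best likeness to the set came from ribosomal proteins under older names. Among 6858 other named probes with 12 values, the 5 with the highest r to the member median were 2510008H07Rik (0.991), Eef1b2 (0.989), 2010004J23Rik (0.987), 2010203J19Rik (0.983) and Bat3 (0.979). RefSeq lists the 3 RIKEN names as synonyms of Rpl15, Rpl4 and Rpl11. Eef1b2 is an exchange factor of translation elongation and, like ribosomal proteins, is known for a TOP tract. Bat3 is a chaperone of newly made membrane proteins. Without the weak arrays these 5 had r between 0.915 and 0.971.

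RefSeq synonyms placed 16 further probes of 12 ribosomal protein genes on the array, 14 of them bright, a search added after that likeness had been seen. These probes had no part in choosing the members. Their median log2 change was −0.15 at 12 hours (6 of 16 higher), −0.10 at 24 hours (5 of 16 higher) and 0.42 at 72 hours (13 of 16 higher), and none passed the test. Without the weak arrays the early medians were 0.33 (14 of 16 higher) and 0.19 (11 of 16 higher). Their array medians were −0.10 to 0.48 in fed and 0.27 to 1.049 after 72 hours. The higher of both probes of Rpl4 was at 0.84 and those of Rps9 at 0.70 and 0.46. A bright probe of Lamr1, the name on the array for Rpsa, was at 0.77 and its dim probe at −0.41, and in the list of ribosomal proteins under other names, which holds both, 2 of 3 probes were higher. Of the like forms, Rpl22l1 was at −0.94 at 12 hours, where the weak array read −3.27 and the change without it was 0.16, and at 0.33 at 72 hours, Rpl39l at −0.51 at 72 hours, and the 11 dim probes of Rpl7l1 between −0.18 and 0.13 at 72 hours.

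Genes that work beside the ribosomal proteins were taken from lists. The other TOP genes, elongation factors among them, had a median of −0.04 at 12, −0.10 at 24 and 0.45 at 72 hours, with 13 of 17 probes higher at 72 hours and none passing. Among them Npm1, which chaperones ribosome assembly, was at 1.25, Pabpc1, which binds the poly(A) tail, at 1.10, and Eef2, which moves the ribosome along, at 0.98 on its bright probe and 0.43 on its dim one. The translation factors had a median of −0.32 at 12 hours (5 of 16 higher) and 0.18 at 72 hours (12 of 16 higher), and Eif4a2, a helicase, was highest at 1.01. The mitochondrial ribosomal proteins, which build a separate ribosome, had a median of −0.16 at 12 hours (18 of 49 higher), −0.07 at 24 hours and 0.01 at 72 hours (25 of 49 higher). Ribosome biogenesis genes had medians of 0.09, 0.04 and 0.09 at 12, 24 and 72 hours, respectively. Genes of the TOR and S6 kinase pathway had −0.10, 0.01 and −0.04, and Pdpk1, the kinase upstream of Akt, was highest at 0.87 at 12 hours. The negative medians of 3 of these lists at 12 hours turned when the weak arrays were left out: the other TOP genes were then at 0.10, the translation factors at 0.21 (11 of 16 higher) and the mitochondrial ribosomal proteins at 0.09 (30 of 49 higher). At 24 hours the same lists were then at 0.23, 0.21 and 0.09. None of these probes passed the test at any time, and whether a list differs from the members was not tested.

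**Figure D5:**
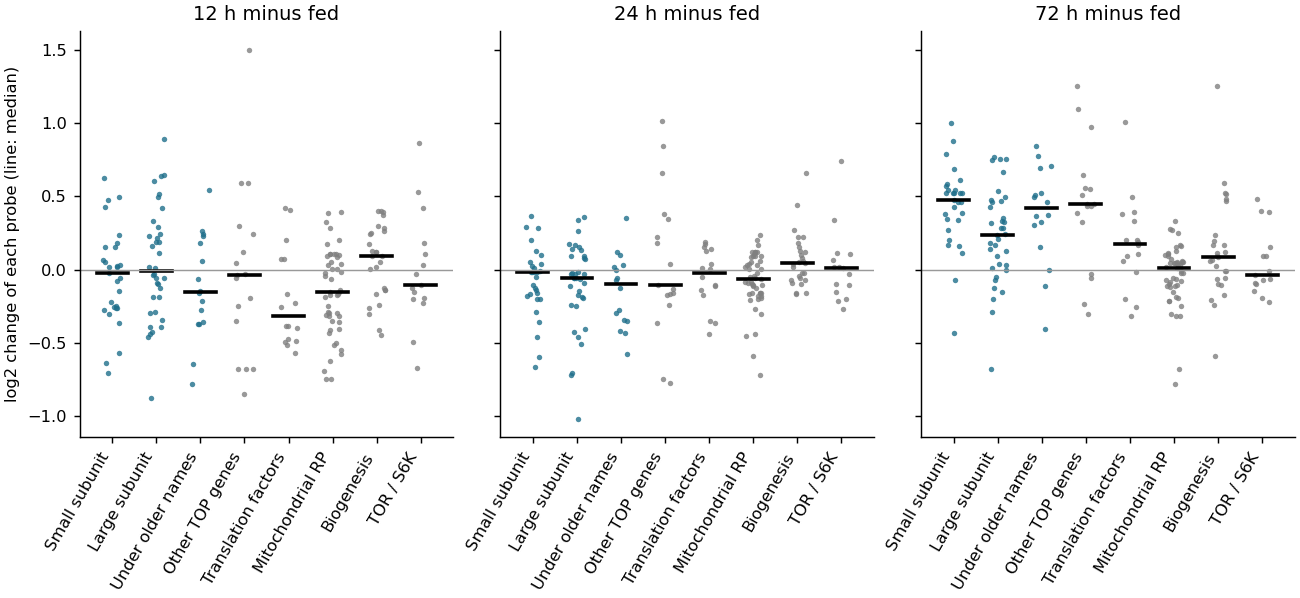
Log2 change against fed of each probe at 12, 24 and 72 hours, for small- and large-subunit members, ribosomal proteins found under older names, and the lists; the black line is the median of each. At 72 hours the medians of the 3 ribosomal groups are 0.47, 0.24 and 0.42 and that of the other TOP genes 0.45, while the mitochondrial ribosomal proteins stay at 0.01.

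Markers of other cells were looked at beside the 72-hour result. Of 11 leukocyte and macrophage probes 2 were higher, with a median of −0.05 and Ii, the class II invariant chain, at −1.35; the log2 of their summed signal was 13.8 to 15.04 in fed and 14.4 to 14.7 after 72 hours. Of 8 endothelial and stellate probes 3 were higher, with a summed log2 signal of 11.4 to 11.5 in both groups, and of 5 biliary probes 2 were higher, with 10.8 to 11.0 in fed and 10.6 to 10.7 after 72 hours. The single erythroid probe, Slc4a1, was at 0.10, and the single acinar one, Cpa1, at 0.13. Of 6 hepatocyte probes 1 was higher, with Ttr at −1.35 and Trf at −1.11, and their summed log2 signal was 17.7 to 17.8 in fed and 17.2 to 17.5 after 72 hours, without overlap. Their part in the change of the members was not tested.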

How the data were processed

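Liver RNA was measured on 12 two-colour Agilent 60-mer mouse arrays, 3 each for fed, 12-, 24- and 72-hour fasted mice. The deposited scanner files hold, per the file headers, spot and local-background intensities of both channels, as Feature Extraction software version 6.1.1 quantified them, without normalization. The deposited log10 ratios (reference over sample, background-subtracted and dye-normalized by that software) were used as an alternative; the deposited series table holds the same values with the sign turned. The authors' own normalized values were not analysed here.

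Of 21446 spots, 1075 controls and 91 retired ones were left out. Intensities were background-corrected with limma's normexp method (offset 50) and put on a common distribution over the 24 channels (quantile normalization). They were then turned into log2 of sample (Cy3) over reference (Cy5). No dyes were exchanged, so that a probe's dye effect cancels between groups only where it is the same on every array. A dye effect that differs between arrays remains in the group differences, and its size was not tested. Spots marked as outliers were set to missing, 32 of 780 for the members. Probes entered the test if the scanner software marked their sample signal well above background throughout at least 1 group, which held for all 65 members. Arrays were grouped by their titles. For the 5 contrasts, lmFit and eBayes of limma (version 3.58.1; R version 4.3.3) were used with 1 spread per probe for all 4 groups and Benjamini-Hochberg adjustment over all probes. The fit was also run on simulated data, with independent noise for each probe of the size seen among the fed arrays. That setting held neither weak arrays nor days, so that it cannot show how the fit deals with them. P-values measure the spread between arrays, in which pool, labelling and hybridization cannot be told apart. The weak arrays enter that spread, and 3 arrays a group limit its precision.

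The members and the lists were chosen with earlier results of these data known. Named members are those called, the 4 highest and 4 lowest in 4 contrasts, stalk proteins, Rps6, like forms, and genes with several probes; a few of them are not reported here. Alternatives covered background, normalization, channels, filters, blocks, weights, arrays left out and membership. Same-numbered arrays of different groups come from different mice.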

Additional observations from a re-analysis of the deposited data

How the results depend on the processing

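That no member passed the test held in all 5 contrasts under loess, plain background subtraction, the scanner's log ratio, either channel alone, no filter, outlier spots kept, centring, 1 probe a gene, the other member lists, both looser thresholds and each array left out (lowest and highest count 0). Array quality weights gave 14 members at 12 hours, 6 at 24 and 7 at 72 hours against fed, 2 between 12 and 24 hours and 4 between 24 and 72 hours. Leaving out both weak arrays gave 2 at 12 and 2 at 24 hours. The day as a block gave 18, 9, 0, 0 and 16 in the order of the 5 contrasts, and medians of −0.80 at 12 and −0.91 at 24 hours against fed and 1.48 between 24 and 72 hours. The median at 72 hours was −0.0722 with the sample channel alone and −0.46 with the reference channel alone, a control, and that of 72 against 24 hours −0.19 and −0.72. The sample channel alone also gave −0.21 at 12 hours (21 of 65 higher), and medians of the opposite sign at 24 hours (0.22, 45 of 65 higher) and for 24 against 12 hours (0.38, 53 of 65 higher). Over single arrays left out, the median ran from −0.35 to 0.30 at 12 hours, −0.22 to 0.20 at 24 hours, 0.22 to 0.57 at 72 hours, −0.47 to 0.32 for 24 against 12 hours and 0.19 to 0.71 for 72 against 24 hours. Array numbers did not pair the arrays, as 5 of 18 same-numbered pairs deviated together by an r above 0.1 (range −0.59 to 0.59). With the replicate block the medians were −0.01, −0.05 and 0.34 at 12, 24 and 72 hours, and no member passed.

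Of 32 named changes, none turned direction under loess, plain subtraction, the scanner's ratio, no filter, outliers kept, centring or the replicate block. Without both weak arrays, Rps3a (0.33) and Rps24 (0.13) at 12 hours and Rpl27 (0.0581) and Rpl30 (0.14) for 72 against 24 hours turned. Array weights turned Rps3a (0.17), Rps24 (0.0720) and Rpl27 (0.0282) in the same contrasts. The day block turned Rpl23 (−0.34), Rps23 (−0.55) and Rplp1 (−0.21) at 12 hours, Rpl22 (−0.17), Rpl28 (−0.53) and Rps28 (−0.80) at 24 hours, and Rps27l (0.36) for 72 against 24 hours. The sample channel alone turned Rps23 (−0.23) at 12 hours, Rpl27a (0.77) at 24 hours, Rpl13 (0.22), Rplp1 (−0.33) and Rplp2 (0.21) at 72 hours, and Rps27l (0.91), Rpl27 (0.25), Rpl9 (−0.31), Rpl30 (0.0714) and Rps3a (−0.27) for 72 against 24 hours. With single arrays left out, Rps3a ran from −1.28 to 0.33 and Rps24 from −1.14 to 0.13 at 12 hours, Rpl22 from −0.0400 to 0.87 at 24 hours, Rplp1 from −0.0772 to 0.47 at 72 hours, and Rpl27 from −0.25 to 0.0581, Rpl30 from −1.04 to 0.14 and Rps27l from −0.42 to 0.0107 for 72 against 24 hours. The cause was not tested.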
